A study of Rattus norvegicus with 93 samples.

Results

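Heat shock proteins and chaperonins are the proteins that fold other proteins and keep them from clumping. The genes followed here were 48 genes of the rat expression array, measured in femur bone marrow after topotecan, oxaliplatin or both. They were taken by symbol alone: every probe set (a group of probes for 1 transcript) annotated with a single symbol that begins with Hspa, Hspb, Hspd, Hspe, Hsph or Hsp90, with Dnaja, Dnajb or Dnajc, or that is Cct2 to Cct8. That rule took 61 of the 12532 probe sets tested, and the probe set of highest mean over all 93 arrays stood for each of the 13 genes that had more than 1. Grouped by the letters of their symbols, the 48 genes were 6 of the Hsp70 family, 1 of the Hsp110 family, 2 of the Hsp90 family, 2 small heat shock proteins, 2 mitochondrial chaperonin genes, 7 genes of the cytosolic chaperonin CCT, and 26 genes of J proteins (4 of class A, 8 of class B and 14 of class C). Hspa4 was thus counted with Hsp70 by its letters and not by what its protein does. The remaining 2, Hspbp1 and Hspbap1, match the rule by their letters but code for partners of Hsp70 and of Hspb1. The probe sets of Hsp90aa1, and 1 shared by Hspa1b and Hspa1a, carry several symbols and were not taken by the rule.

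Hsp70 proteins bind unfolded stretches of other proteins and release them in a cycle driven by ATP, J proteins bring clients to Hsp70 and start that cycle, and Hsp110 proteins end it by exchanging the nucleotide. The CCT complex and the Hspd1/Hspe1 complex of mitochondria are chambers that enclose a protein while it folds, and actin and tubulin are the best known clients of CCT. Hspa1a, Hsph1, Dnajb1 and Hspb1 are textbook targets of heat shock factor, which binds repeats of the letters GAA and TTC in promoters, whereas Hspa5, Hsp90b1, Dnajb9, Dnajb11 and Dnajc3 work in the endoplasmic reticulum.

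The rats were male Sprague-Dawley animals of about 8 weeks with an implanted vein catheter, and each rat gave 1 array of marrow flushed from the left femur. Every rat received a pair of 30 min intravenous infusions, the second begun 30 min after the end of the first. The dose of topotecan, which traps topoisomerase I on DNA, was 4.7 mg/kg in 0.9% NaCl, and that of oxaliplatin, a platinum compound that binds DNA, was 15 mg/kg in D5W, which is 5% dextrose in water. Groups are named by the first and then the second infusion. The 2 vehicle groups were NaCl/D5W and D5W/NaCl, topotecan alone was given as topotecan/D5W or as D5W/topotecan, oxaliplatin alone as oxaliplatin/NaCl or as NaCl/oxaliplatin, and both drugs as topotecan/oxaliplatin or as oxaliplatin/topotecan. Marrow was taken 1, 6 or 24 h after dosing ended, from 4 rats a group and time, except that 3 rats were left in oxaliplatin/NaCl at 6 h and, at 24 h, in D5W/NaCl and topotecan/D5W. The control of a treatment was the vehicle group with the same infusion order: NaCl/D5W for topotecan/D5W, topotecan/oxaliplatin and NaCl/oxaliplatin, and D5W/NaCl for the other 3, so that 3 comparisons at a time share 1 set of vehicle rats.

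Values are log2 signals, and differences are log2 fold changes from limma with their standard errors (SE). A gene is said to have risen or fallen where its Benjamini-Hochberg adjusted p over all 12532 probe sets was under 0.01. In vehicle rats the marrow showed high signals of red cell precursor genes (13 measured, mean 12.9 to 13.0 by group) and of granulocyte precursor genes (6 measured, mean 13.3 to 13.4). In skeletal muscle genes 3 arrays stood apart: rats 41 and 42 of oxaliplatin/NaCl at 24 h and rat 52 of topotecan/oxaliplatin at 6 h. Rat 73, labelled NaCl/oxaliplatin at 1 h, also stood apart: the mean of the 9 p53 target genes measured was 8.24, within the range of the vehicle rats at 1 h (8.14 to 8.42), where the other 3 rats of its group read 9.57 to 9.75. That mean was also 9.26 in vehicle rat 15 of D5W/NaCl at 6 h, beside 8.40 to 8.74 in the others of its group, and without rat 15 the counts of changed genes at 6 h against that vehicle were 19 of 48 in D5W/topotecan, 21 in oxaliplatin/topotecan and 5 in oxaliplatin/NaCl (17, 20 and 5 with it). In whole marrow, fewer cells of a type and less RNA per cell cannot be told apart.

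RefSeq promoter windows, from 250 bases before to 50 after the start of a gene on build GRCr8, were found for 41 of the 48 genes. They were searched on both strands for the heat shock element as a pair of units (GAANNTTC or TTCNNGAA) and as 3 units (GAANNTTCNNGAA or TTCNNGAANNTTC, which contain the pair). The pair stood in 13 of the 41 windows (31.7%) and in 15.6% of all 27457 windows, and the 3 units in 5 of the 41 (12.2%) and in 0.736% of all. The 5 were Cct4, Dnaja1, Hspd1, Hspe1 and Hsph1. The window of Hspa1a (chr20:3859506-3859805) held 0 of either, which says only that these letters are not in it. The windows of Hspd1 and Hspe1, which lie head to head, share 211 bases. Below are 4 windows, shown because Hsph1, Hspe1 and Dnaja1 fell at 1 h with topotecan first whereas Dnajb1 rose with topotecan second, with the matches in capitals and each read 5′ to 3′ on the strand of its gene. Hsph1 lies at chr12:10427118-10427417 (plus strand), Hspe1 at chr9:64084077-64084376 (plus), Dnajb1 at chr19:41431092-41431391 (minus) and Dnaja1 at chr5:60638154-60638453 (plus).
Hsph1: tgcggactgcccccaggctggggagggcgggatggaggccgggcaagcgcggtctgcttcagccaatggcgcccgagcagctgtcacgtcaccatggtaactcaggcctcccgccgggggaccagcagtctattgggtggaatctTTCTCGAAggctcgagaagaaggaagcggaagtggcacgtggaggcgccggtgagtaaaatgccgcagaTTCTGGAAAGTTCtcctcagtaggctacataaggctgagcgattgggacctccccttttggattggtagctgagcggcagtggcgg
Hspe1: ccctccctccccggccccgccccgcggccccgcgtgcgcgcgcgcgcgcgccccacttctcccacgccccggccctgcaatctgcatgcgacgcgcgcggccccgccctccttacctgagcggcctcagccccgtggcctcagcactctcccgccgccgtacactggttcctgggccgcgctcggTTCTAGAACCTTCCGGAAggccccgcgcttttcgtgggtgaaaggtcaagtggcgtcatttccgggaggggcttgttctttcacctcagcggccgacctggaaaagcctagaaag
Dnajb1: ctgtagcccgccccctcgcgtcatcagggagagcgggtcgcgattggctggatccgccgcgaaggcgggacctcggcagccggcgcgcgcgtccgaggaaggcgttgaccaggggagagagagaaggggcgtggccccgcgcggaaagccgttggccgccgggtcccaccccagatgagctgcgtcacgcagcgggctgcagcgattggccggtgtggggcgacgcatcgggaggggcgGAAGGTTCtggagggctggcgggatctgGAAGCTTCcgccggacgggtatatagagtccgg
Dnaja1: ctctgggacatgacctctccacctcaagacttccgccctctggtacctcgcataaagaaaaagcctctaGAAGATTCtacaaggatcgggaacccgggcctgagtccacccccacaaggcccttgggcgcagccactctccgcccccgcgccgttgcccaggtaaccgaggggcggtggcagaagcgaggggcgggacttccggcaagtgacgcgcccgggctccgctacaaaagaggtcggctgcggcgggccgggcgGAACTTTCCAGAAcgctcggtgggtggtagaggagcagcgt
All 4 windows shown hold matches. Those of Cct2, Cct3, Cct7, Cct8 and Hsp90ab1, which also fell at 1 h with topotecan first, held 0 of either. So did that of Dnajb9, which rose with topotecan second. A match of letters is a description and not a site shown to be bound.

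At 1 h, most chaperone genes were lower in rats that had received topotecan in the first infusion and few were in rats that had received it in the second. In topotecan/D5W, 32 of the 48 genes fell and 0 rose, where 26.0% of all probe sets fell and 9.18% rose. In topotecan/oxaliplatin, 34 fell and 1 rose, where 32.9% of all fell and 9.77% rose. The median change of the 48 genes was -0.43 and -0.52 in these treatments, beside -0.10 and -0.16 over all 7810 genes. In D5W/topotecan, 5 fell and 4 rose (19.5% and 7.67% of all probe sets), and in oxaliplatin/topotecan 9 fell and 4 rose (27.6% and 7.21%). Oxaliplatin alone moved none of the 48 by this limma test: in oxaliplatin/NaCl 0 rose and 0 fell (0.575% and 0.654% of all probe sets), with 7 genes at an unadjusted p under 0.05, and in NaCl/oxaliplatin 0 rose and 0 fell (0.136% and 0.0239%), with 5 such genes, and without rat 73 also 0. A second quantile normalization moved the median of all probe sets at 1 h by over 0.1 on the log2 scale, from -0.09 to 0.01 in topotecan/D5W, from -0.14 to 0.01 in topotecan/oxaliplatin and from -0.13 to 0.02 in oxaliplatin/topotecan. After it, the genes that rose and fell numbered 2 and 28 in topotecan/D5W, 3 and 30 in topotecan/oxaliplatin, 5 and 5 in D5W/topotecan and 5 and 7 in oxaliplatin/topotecan, and the share of risers among all changed probe sets went from 26.1% to 43.7%, 22.9% to 44.2%, 28.3% to 42.2% and 20.7% to 44.1%.

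**Figure D1:**
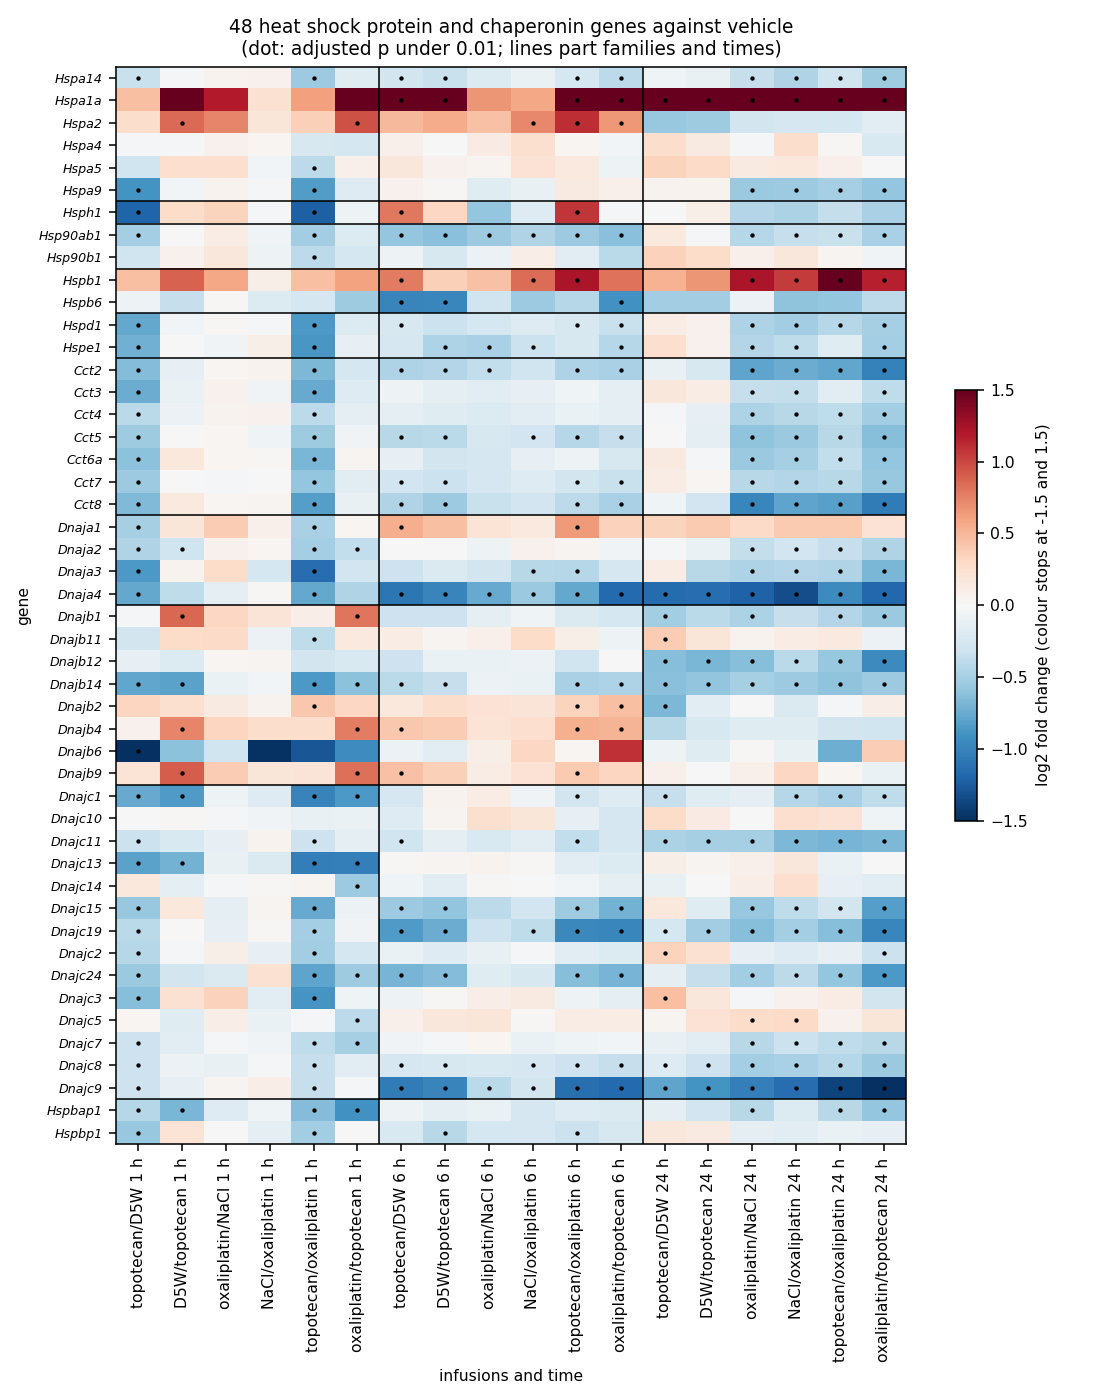
Each row is a gene of the 48 and each column a treatment at 1, 6 or 24 h; colour gives the log2 fold change against the vehicle group of the same infusion order and stops at -1.5 and 1.5, and a dot marks an adjusted p under 0.01. The blue blocks lie in the topotecan/D5W and topotecan/oxaliplatin columns at 1 h and in the oxaliplatin columns at 24 h, and Hspa1a is the darkest red row at 6 and 24 h.

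The chaperonins fell together at 1 h when topotecan came first. All 7 CCT genes fell in topotecan/D5W, by 0.40 (Cct4) to 0.74 (Cct3) on the log2 scale, and all 7 fell in topotecan/oxaliplatin, by 0.40 (Cct4) to 0.83 (Cct8). None of the 7 fell in the other 4 treatments at 1 h, where the changes ran from -0.26 to 0.16. Cct8 was 10.51, 10.79, 10.65 and 10.53 in the NaCl/D5W rats and 9.90, 9.80, 9.92 and 10.21 in the topotecan/D5W rats, and 10.43, 10.56, 10.56 and 10.49 in the D5W/NaCl rats and 10.41, 10.65, 10.64 and 10.90 in the D5W/topotecan rats. The former groups did not overlap and the latter did.

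Hspd1 and Hspe1, the chamber and the lid of the mitochondrial chaperonin, moved as CCT did. Hspd1 fell by 0.77 (SE 0.07, adjusted p = 6.7e-11) in topotecan/D5W and by 0.86 in topotecan/oxaliplatin. Its signal was 12.79 to 12.92 in the 4 NaCl/D5W rats, 11.92 to 12.37 in the topotecan/D5W rats and 11.88 to 12.05 in the topotecan/oxaliplatin rats. Hspe1 fell by 0.72 and 0.87. In D5W/topotecan Hspd1 changed by -0.05, from rats at 12.64, 12.42, 12.64 and 13.13 beside 12.70 to 12.82 in D5W/NaCl. The oxaliplatin/topotecan rats, at 12.40 to 12.66, all lay below D5W/NaCl. Neither change of Hspd1 with topotecan second passed. Hspa9, the Hsp70 of mitochondria, fell by 0.90 and 0.84 where topotecan came first, and its changes in the other 4 treatments were -0.19 to 0.05. The matching cytosolic genes also fell in these treatments: Hsp90ab1, the constitutive Hsp90, by 0.51 and 0.52, and Hsph1, the exchange factor of Hsp70, by 1.20 (SE 0.25, adjusted p = 0.00014) and 1.22.

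**Figure D2:**
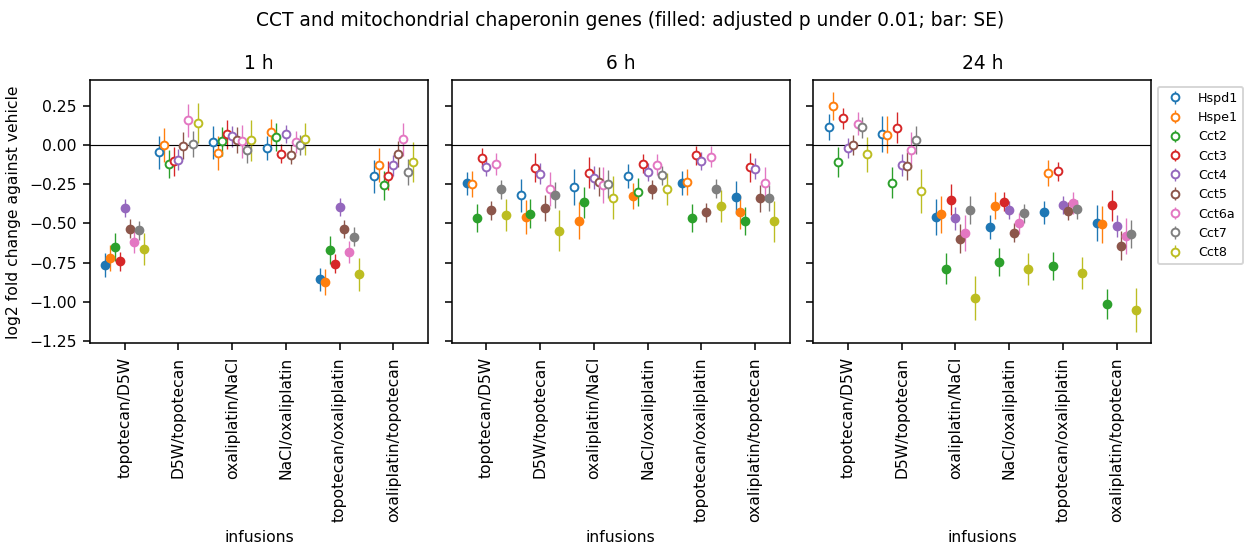
Log2 fold change against own-order vehicle (vertical axis) of the 7 CCT genes and of Hspd1 and Hspe1 in the 6 treatments, with a panel for each time; bars are SE and filled points passed an adjusted p of 0.01. At 1 h the filled points are those of topotecan/D5W and topotecan/oxaliplatin, and at 24 h those of the 4 treatments with oxaliplatin.

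The order of infusion was tested directly, as the difference between 2 changes from vehicle in a fit of all groups. Times count from the end of dosing, so a drug infused first had also been given longer before marrow was taken. Order and time since the drug cannot be told apart in this design. For topotecan alone, 19 of the 48 genes differed by order at 1 h, all 19 lower with topotecan first, where 12.2% of all probe sets differed. They were all 7 CCT genes, Hspd1 and Hspe1, Hsph1, Hspa9, Hspbp1, and the J protein genes Dnaja3, Dnajb1, Dnajb4, Dnajb9, Dnajc2, Dnajc3 and Dnajc15. The largest differences were -1.47 for Hsph1 (SE 0.35, adjusted p = 0.0012), -0.92 for Dnaja3, a J protein of mitochondria, -0.88 for Dnajb1, the partner of inducible Hsp70, -0.86 for Dnajc3 and -0.85 for Hspa9. For the combinations, 15 differed at 1 h (9.85% of all probe sets), 14 of them lower with topotecan first: Dnaja3 by -0.86, Dnajc3 by -0.82, Hspe1 by -0.74, Cct6a by -0.72 and Cct8 by -0.72 were the largest, and Dnajc5 was the 1 gene that was higher, by 0.36. Leaving out any single rat gave 13 to 22 genes for topotecan alone and 10 to 15 for the combinations. The vehicle groups, which overlapped and were not tested against each other, had Hsph1 means of 11.48 and 10.98 at 1 h, from 11.51, 11.51, 12.13 and 10.75 in NaCl/D5W and 10.93, 11.11, 10.83 and 11.06 in D5W/NaCl. Hsph1 was 10.12, 10.23, 10.45 and 10.33 in topotecan/D5W and 10.81, 10.90, 11.27 and 12.06 in D5W/topotecan. The topotecan/D5W rats lay below all of the other 3 groups. The mean of the 11 dividing cell genes measured was 11.11 in topotecan/D5W and 11.07 in D5W/topotecan, beside 11.56 and 11.55 in their vehicle groups. The sample titles carry a code of unstated meaning, whose column is shared by topotecan/D5W and the vehicles at 1 h but not by D5W/topotecan, and shared by both combinations. Its part in the difference for topotecan alone was not tested.

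No gene of the 48 passed the test of order in the other 7 comparisons by limma. With oxaliplatin alone 0 of the 48 genes differed by order at 1 h (0.0% of all probe sets, and 5 of the 48 at an unadjusted p under 0.05), and 0 without rat 73. At 6 h, 0 differed for topotecan alone (0.0%), 0 for oxaliplatin alone (0.0%) and 0 for the combinations (0.00798%), with 1, 0 and 2 genes at an unadjusted p under 0.05 in limma. At 24 h, 0 differed for topotecan alone (0.0%), 0 for oxaliplatin alone (0.0%) and 0 for the combinations (0.0%), with 2, 1 and 6 genes at an unadjusted p under 0.05.

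**Figure D3:**
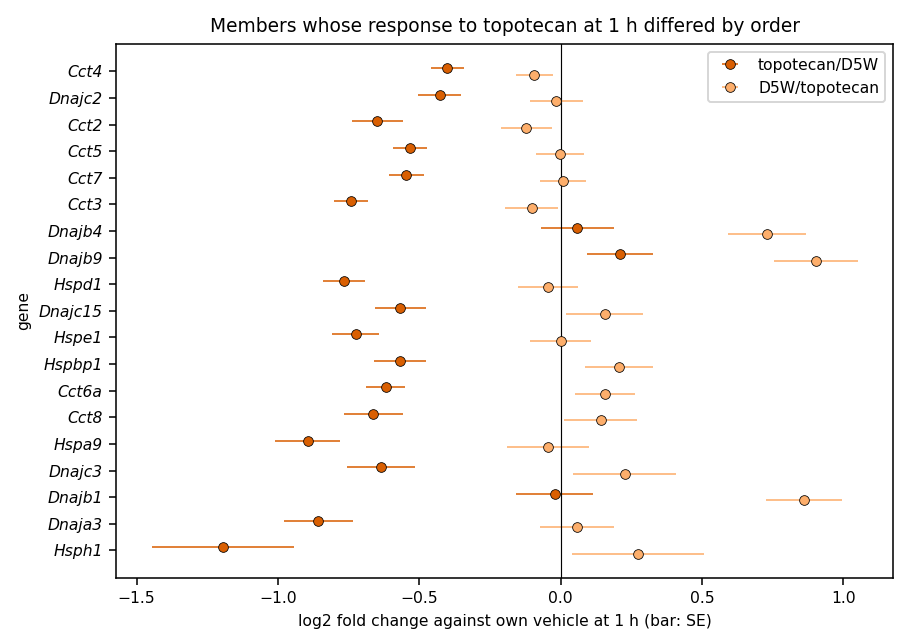
The 19 genes whose response to topotecan alone at 1 h differed by order; the horizontal axis is the log2 fold change against own-order vehicle, with SE bars, dark for topotecan/D5W and light for D5W/topotecan. Most dark points lie below 0 with the light point near 0, whereas for Dnajb1, Dnajb4 and Dnajb9 the dark point lies near 0 and the light point above it.

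The genes plotted by order were of 2 kinds. Most of the 19 fell with topotecan first and had small changes with topotecan second. Dnajb1, Dnajb4 and Dnajb9 differed because they rose with topotecan second. Dnajb1 was 10.67, 10.80, 10.77 and 10.91 in D5W/NaCl and 11.45, 11.63, 11.62 and 11.90 in D5W/topotecan, a rise of 0.86 (SE 0.13, adjusted p = 2.1e-06) with no overlap, and it rose by 0.80 in oxaliplatin/topotecan. It was 10.93, 11.10, 11.42 and 10.79 in NaCl/D5W and 10.92, 10.92, 11.37 and 10.94 in topotecan/D5W, groups that overlap. Dnajb9, which serves the endoplasmic reticulum, rose by 0.90 and 0.83 with topotecan second, and Dnajb4 by 0.73 and 0.77. Hspa2, an Hsp70 known best from testis, rose by 0.85 and 0.96 in the same treatments.

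A further set of J protein genes fell at 1 h in both orders. Dnajc13, which acts on endosomes, fell by 0.80 in topotecan/D5W, 0.71 in D5W/topotecan, 1.04 in topotecan/oxaliplatin and 1.02 in oxaliplatin/topotecan. Dnajc1, of the endoplasmic reticulum membrane, fell by 0.76, 0.84, 1.00 and 0.86 in the same order of treatments. Dnajb14, Dnaja2 and Hspbap1 also fell in these 4 treatments, by 0.30 to 0.91. In topotecan/oxaliplatin, Dnaja3 fell by 1.15, and Dnajb2 was the gene that rose, by 0.40 (0.35 without rat 7 and 0.31 without rat 49, neither of which passed).

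Dnajb6, a J protein that holds back protein clumps, had the largest mean change of the 48 at 1 h, and the most scattered values. It was 10.34, 10.00, 7.62 and 9.74 in NaCl/D5W and 7.81, 7.61, 7.49 and 7.19 in topotecan/D5W, a fall of 1.90 (SE 0.46, adjusted p = 0.00086). It was 8.02, 9.89, 7.96 and 9.33 in D5W/NaCl and 7.63, 7.52, 9.82 and 7.78 in D5W/topotecan. In oxaliplatin/NaCl it was 7.78, 8.08, 10.02 and 8.10, and in NaCl/oxaliplatin 8.01, 8.07, 7.79 and 7.91. Rats of the same group thus split into high and low values, and the change passed in topotecan/D5W alone. The combinations read 9.47, 7.61, 7.66 and 7.84 in topotecan/oxaliplatin and 7.46, 9.20, 7.35 and 7.40 in oxaliplatin/topotecan. With only topotecan/D5W and NaCl/D5W in the fit, the change had an adjusted p of 0.014.

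Hspa1a, the stress-inducible Hsp70, had the largest rise of the 48 genes at 6 h. It was 7.04, 7.02, 6.68 and 6.77 in the NaCl/D5W rats, 13.38, 8.38, 10.06 and 12.67 in the topotecan/D5W rats, and 11.44, 12.71, 12.73 and 11.13 in the topotecan/oxaliplatin rats. It was 6.83, 7.03, 6.67 and 6.56 in the D5W/NaCl rats, 8.63, 10.44, 10.48 and 11.49 in the D5W/topotecan rats, and 8.24, 9.67, 9.60 and 9.81 in the oxaliplatin/topotecan rats. Every topotecan rat lay above every vehicle rat of its order, and the rats of topotecan/D5W were the most scattered. With oxaliplatin alone it was 7.54, 7.38 and 7.39 in oxaliplatin/NaCl and 7.51, 7.73, 7.31 and 7.28 in NaCl/oxaliplatin, above the vehicle rats by a smaller step.

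The changes at 6 h were 4.25 (SE 0.60, 19.0-fold, adjusted p = 2.1e-07) in topotecan/D5W, 3.49 (SE 0.62, 11.2-fold) in D5W/topotecan, 5.13 (SE 0.60, 34.9-fold, adjusted p = 3.3e-09) in topotecan/oxaliplatin and 2.56 (SE 0.62, 5.89-fold, adjusted p = 0.00062) in oxaliplatin/topotecan. Without rat 27 or rat 28 the topotecan/D5W change was 3.50 or 5.16. The table holds no detection calls, so that the folds are ratios of normalized signals, and whether the vehicle signals lay above background was not tested. The changes of oxaliplatin alone did not pass, at 0.66 (SE 0.67, adjusted p = 0.51) in oxaliplatin/NaCl and 0.58 (SE 0.60, adjusted p = 0.51) in NaCl/oxaliplatin. These SE pool the spread of all groups of a fit, where the SD reached 1.63 (D5W/topotecan at 24 h) and 2.32 (topotecan/D5W at 6 h). At 6 h the SD was 0.09 in oxaliplatin/NaCl and 0.21 in NaCl/oxaliplatin, beside 0.20 and 0.18 in their vehicle groups. The exact two-sided permutation test over rats gave p = 0.0286 in each of the 6 comparisons at 6 h, the smallest p that these group sizes allow, or 0.0396 after adjustment over 18 comparisons. Hspa1a at 6 h was singled out with earlier results of these data known, so the limma and permutation p-values describe it and are no independent test. The 2 combinations differed by 2.57 (SE 0.88) at 6 h, higher with topotecan first, which did not pass (adjusted p = 0.31).

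**Figure D4:**
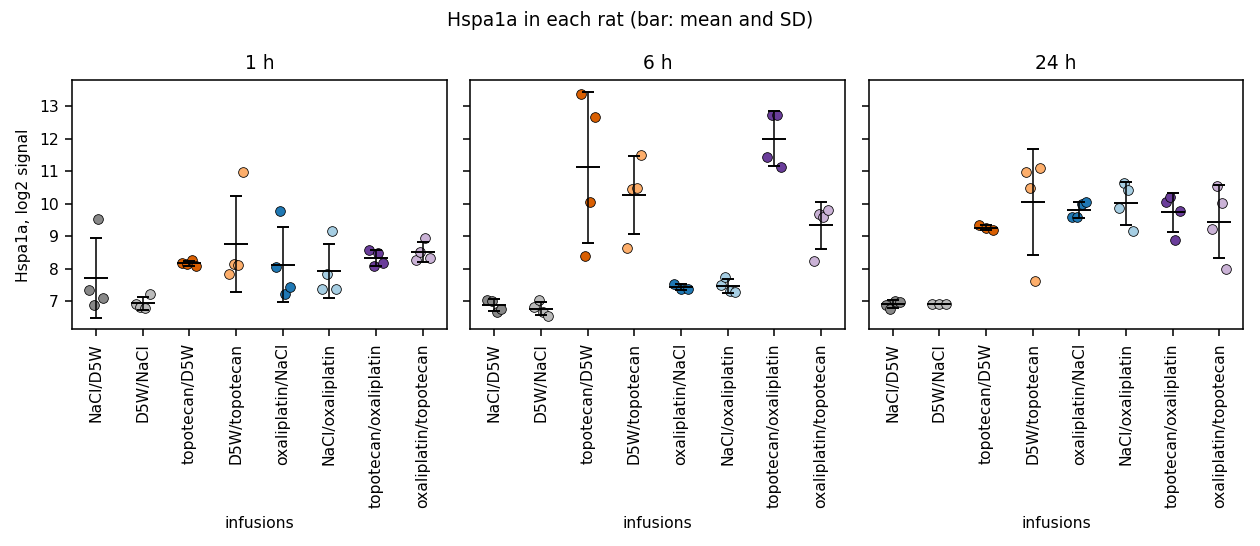
Hspa1a in each rat (vertical axis, log2 signal) by group, with a panel for each time; bars give the mean and SD of the 3 or 4 rats. At 6 h the 16 rats given topotecan lie between 8.24 and 13.38 and the 8 vehicle rats between 6.56 and 7.04, and at 24 h the rats of all 6 treatments lie between 7.62 and 11.09 and the vehicle rats at 7.01 or below.

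At 24 h Hspa1a was higher in all 6 treatments, with oxaliplatin too. The 7 vehicle rats lay between 6.77 and 7.01. The rats read 9.35, 9.24 and 9.19 in topotecan/D5W, 10.96, 10.49, 7.62 and 11.09 in D5W/topotecan, 9.58, 9.59, 9.98 and 10.05 in oxaliplatin/NaCl, and 9.86, 10.63, 10.42 and 9.16 in NaCl/oxaliplatin. They read 10.05, 10.21, 8.88 and 9.78 in topotecan/oxaliplatin and 9.21, 10.54, 10.03 and 7.99 in oxaliplatin/topotecan. No treated rat overlapped a vehicle rat. The rises were 2.35 in topotecan/D5W (5.09-fold, adjusted p = 0.0032), 3.13 in D5W/topotecan (8.73-fold), 2.89 in oxaliplatin/NaCl (7.39-fold), 3.11 in NaCl/oxaliplatin (8.61-fold), 2.82 in topotecan/oxaliplatin (7.06-fold) and 2.53 in oxaliplatin/topotecan (5.77-fold, adjusted p = 0.0012). The exact permutation test gave p = 0.0286 in 4 of them and 0.0571 in D5W/topotecan and oxaliplatin/topotecan. Without rat 29 or rat 36 the topotecan/D5W rise was 2.31 or 2.38 and its adjusted p 0.015 or 0.0104. Osteoblast and stroma genes rose in the same 6 treatments at 24 h (4 to 8 of the 10 measured, group means 11.37 to 11.70 beside 10.22 and 10.28 in vehicle), and so did macrophage genes (6 to 8 of the 8 measured, 11.16 to 11.52 beside 10.51 and 10.60). Their part in the rise of Hspa1a, and of Hspb1 at 24 h, was not tested.

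At 1 h Hspa1a passed in none of the 6 treatments by limma, and single rats stood high in several groups, a vehicle group among them. NaCl/D5W read 7.35, 6.87, 9.54 and 7.09, and D5W/NaCl read 6.92, 6.81, 6.79 and 7.22. D5W/topotecan read 7.83, 8.15, 8.12 and 10.96 (change 1.83, adjusted p = 0.017), and oxaliplatin/topotecan 8.28, 8.50, 8.94 and 8.33 (change 1.58, adjusted p = 0.034). The exact permutation p was 0.0286 in these and in oxaliplatin/NaCl (8.06, 9.77, 7.22 and 7.45, change 1.19), none of which overlapped D5W/NaCl, although its highest rat and the lowest oxaliplatin/NaCl rat both round to 7.22. The changes against NaCl/D5W were 0.46 in topotecan/D5W (8.19, 8.14, 8.26 and 8.08), 0.23 in NaCl/oxaliplatin (7.37, 7.85, 9.15 and 7.38) and 0.62 in topotecan/oxaliplatin (8.58, 8.07, 8.48 and 8.19), with exact permutation p of 0.629, 0.629 and 0.371. These groups overlapped their vehicle group, in which rat 7 read 9.54. Without rat 7 the changes were 1.06 in topotecan/D5W, 0.83 in NaCl/oxaliplatin and 1.23 in topotecan/oxaliplatin, and without vehicle rat 2 they were 0.17, -0.06 and 0.34. Without rat 79 that of NaCl/oxaliplatin was -0.18, and without rat 92 that of D5W/topotecan was 1.10. None of these passed.

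Hspa1a and Hspa1b are nearly identical copies, so signal cannot be split between them with certainty. At 6 h the probe set that names both rose by 3.65 in topotecan/D5W, 3.02 in D5W/topotecan, 4.39 in topotecan/oxaliplatin and 2.28 in oxaliplatin/topotecan. At 24 h its changes were smaller, at 1.19 in topotecan/D5W (adjusted p = 0.12), 1.75 in oxaliplatin/NaCl (0.012) and 1.60 in oxaliplatin/topotecan (0.019), none of which passed, and at 2.09 in D5W/topotecan (0.0039), 1.75 in NaCl/oxaliplatin (0.0095) and 1.83 in topotecan/oxaliplatin (0.0060), which did. Its use was chosen after the data were seen.

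Hsph1 turned over between 1 and 6 h in the rats that had topotecan first. After its fall at 1 h, it was 10.32, 10.57, 10.70 and 10.61 in NaCl/D5W at 6 h, 12.21, 10.27, 10.93 and 11.96 in topotecan/D5W, and 11.48, 11.87, 11.90 and 11.24 in topotecan/oxaliplatin. The rises were 0.80 (SE 0.25, adjusted p = 0.0077) and 1.07 (SE 0.25, adjusted p = 0.00041), and rat 28, the lowest of topotecan/D5W, lay below the vehicle rats. That rat was also the lowest of its group in Hspa1a. The topotecan/D5W rise did not pass without vehicle rat 3, 4, 9 or 10 (0.72 to 0.84) or without rat 27 (0.51) or 34 (0.59), was 1.15 without rat 28 and 0.93 without rat 33, and did not pass with only those 2 groups in the fit (adjusted p = 0.11). In D5W/topotecan and oxaliplatin/topotecan the changes of Hsph1 at 6 h were 0.31 and -0.03, and at 24 h no treatment moved it past the threshold (-0.49 to 0.09). Dnaja1, a J protein of the cytosol, also fell at 1 h (by 0.50 and 0.49) and rose at 6 h (by 0.55 and 0.64) in topotecan/D5W and topotecan/oxaliplatin.

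**Figure D5:**
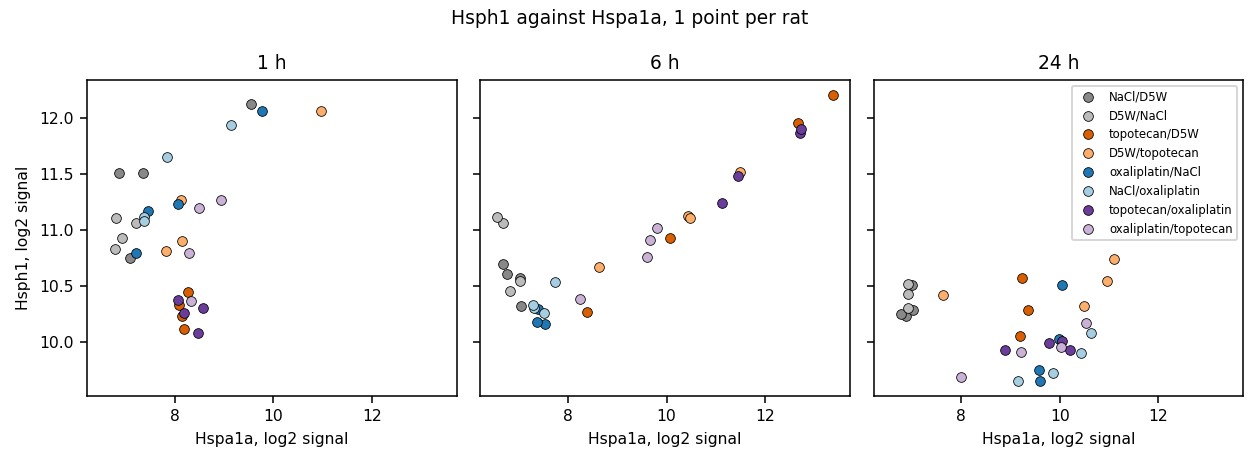
Hsph1 (vertical axis) against Hspa1a (horizontal axis), both in log2 signal, 1 point per rat coloured by group, with a panel for each time. At 6 h the rats given topotecan run from about the vehicle level to the upper right. At 1 h the rats given topotecan first sit lowest in Hsph1, beside 1 rat of oxaliplatin/topotecan. At 24 h Hspa1a differs more between groups than Hsph1 does.

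Across the 93 arrays, after the mean of the vehicle group of the same order and time was taken off, the 5 genes of 7810 whose pattern was most like that of Hspa1a were Timp1 (Pearson r = 0.798), F2r (0.784), Ajuba (0.776), Litaf (0.765) and Bag3 (0.763). Of the other 47 genes, Dnaja1 came nearest (0.720, rank 40), then Hspb1 (0.639, rank 230) and Hsph1 (0.514, rank 831). These values describe arrays that share groups and vehicle means.

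At 6 h 33.3% to 37.5% of the 48 genes fell in the treatments with topotecan, and fewer did with oxaliplatin alone. In topotecan/D5W 6 rose and 16 fell (15.1% and 25.6% of all probe sets), and in D5W/topotecan 1 rose and 16 fell (14.1% and 20.4%). In topotecan/oxaliplatin 8 rose and 18 fell (17.0% and 27.6%), and in oxaliplatin/topotecan 4 rose and 16 fell (14.2% and 27.5%). In oxaliplatin/NaCl 0 rose and 5 fell (3.78% and 7.25%), and in NaCl/oxaliplatin 2 rose and 8 fell (5.54% and 9.69%). The count of oxaliplatin/NaCl went from 5 to 2 without rat 39, 45 or 46 and to 3 without vehicle rat 21, and that of NaCl/oxaliplatin from 10 to 6 without rat 76.

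At 6 h 3 genes, Dnaja4, Hsp90ab1 and Dnajc9, fell in all 6 treatments, and the share of all probe sets that did so was not counted. Dnaja4 fell by 1.09 in topotecan/D5W, 0.99 in D5W/topotecan, 0.76 in oxaliplatin/NaCl, 0.56 in NaCl/oxaliplatin, 0.77 in topotecan/oxaliplatin and 1.17 in oxaliplatin/topotecan. Hsp90ab1 fell by 0.45 to 0.63. In oxaliplatin/NaCl, Dnaja4 did not pass without rat 39 (-0.72) or 45 (-0.71), nor Hsp90ab1 without rat 39 (-0.54) or 46 (-0.53). The second probe set of Dnaja4 did not pass in oxaliplatin/NaCl (-0.72) or NaCl/oxaliplatin (-0.58), nor that of Hsp90ab1 in oxaliplatin/NaCl (-0.54). Dnajc9, a J protein that handles histone H3, was 12.51 to 12.79 in the 4 NaCl/D5W rats and 12.52 to 12.76 in the D5W/NaCl rats, and 11.38 to 11.70 in topotecan/D5W, 11.50 to 11.71 in D5W/topotecan, 11.45 to 11.57 in topotecan/oxaliplatin and 11.37 to 11.53 in oxaliplatin/topotecan. It read 12.16 to 12.29 in oxaliplatin/NaCl and 12.33 to 12.41 in NaCl/oxaliplatin. Its falls were thus 0.99 to 1.16 with topotecan and 0.40 and 0.28 with oxaliplatin alone, with no overlap with vehicle. Dividing cell genes moved in the same direction: all 11 measured fell in each treatment with topotecan, and 2 and 3 of the 11 in oxaliplatin/NaCl and NaCl/oxaliplatin. Their part in the fall of Dnajc9 was not tested.

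Among the CCT genes at 6 h, Cct2, Cct5, Cct7 and Cct8 fell in the 4 treatments with topotecan, by 0.28 to 0.55, Cct2 (-0.37) in oxaliplatin/NaCl and Cct5 (-0.28) in NaCl/oxaliplatin. A second probe set of Cct8 did not pass at 6 h (0.01, -0.09, -0.02 and -0.14 in topotecan/D5W, D5W/topotecan, topotecan/oxaliplatin and oxaliplatin/topotecan). Cct2 in oxaliplatin/NaCl did not pass without vehicle rat 21 or 22 or without rat 39, 45 or 46 (-0.39 to -0.32), nor Cct7 in D5W/topotecan without vehicle rat 22 (-0.28). Cct3, Cct4 and Cct6a did not pass in any treatment at 6 h (-0.28 to -0.07). Hspe1 fell by 0.46 in D5W/topotecan, 0.48 in oxaliplatin/NaCl, 0.33 in NaCl/oxaliplatin and 0.43 in oxaliplatin/topotecan, and Hspd1 by 0.24 in topotecan/D5W and topotecan/oxaliplatin and by 0.33 in oxaliplatin/topotecan. Each of these Hspd1 calls was lost in 5 of 8 fits that left out 1 rat: in topotecan/D5W without rat 4, 9, 10, 27 or 28 (-0.25 to -0.18), in topotecan/oxaliplatin without rat 4, 9, 10, 51 or 52 (-0.25 to -0.21) and in oxaliplatin/topotecan without rat 21, 22, 63, 64 or 69 (-0.35 to -0.27). Hspe1 did not pass in oxaliplatin/NaCl without rat 21, 45 or 46 (-0.49 to -0.42) and in NaCl/oxaliplatin without rat 3, 4, 81 or 82 (-0.30 to -0.27). Dnajc19, which sits at the protein import gate of mitochondria, fell by 0.75 to 0.98 with topotecan and by 0.38 in NaCl/oxaliplatin. The riser Hspa2 passed in NaCl/oxaliplatin (0.72), topotecan/oxaliplatin (1.11) and oxaliplatin/topotecan (0.66). Its call in NaCl/oxaliplatin was lost without rat 3, 4, 75, 76 or 82 (0.61 to 0.76) and that in oxaliplatin/topotecan without rat 15, 16, 21, 64, 69 or 70 (0.55 to 0.67), and its other probe set passed in neither (0.41 and 0.31). Dnajb4 rose in topotecan/D5W (0.40), topotecan/oxaliplatin (0.54) and oxaliplatin/topotecan (0.51). Dnajb2 rose by 0.33 in topotecan/oxaliplatin and by 0.45 in oxaliplatin/topotecan, and Dnaja3 fell by 0.42 in NaCl/oxaliplatin, which did not pass without rat 9, 10, 75, 76, 81 or 82 (-0.44 to -0.35).

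At 24 h chaperonin genes fell in the 4 treatments with oxaliplatin and, by the probe set that stood for each gene, did not pass in topotecan alone. In oxaliplatin/NaCl 3 of the 48 genes rose and 26 fell (19.6% and 26.4% of all probe sets), in NaCl/oxaliplatin 3 rose and 25 fell (24.9% and 30.2%), in topotecan/oxaliplatin 2 rose and 25 fell (25.9% and 35.2%), and in oxaliplatin/topotecan 2 rose and 28 fell (21.8% and 33.3%). In topotecan/D5W 4 rose and 10 fell (16.1% and 17.3%), and in D5W/topotecan 1 rose and 7 fell (18.1% and 18.3%). The median change of the 48 genes was -0.47 to -0.35 in the 4 treatments with oxaliplatin, beside -0.12 to -0.03 over all genes, and it was -0.003 and -0.10 in topotecan alone. The count of oxaliplatin/NaCl was 15 in place of 29 without the arrays of rats 41 and 42, which were high in muscle genes, and 18 without vehicle rat 24, and that of topotecan/D5W went from 14 to 7, 8 or 9 without rat 29, rat 36 or vehicle rat 11.

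All 7 CCT genes fell in oxaliplatin/NaCl, NaCl/oxaliplatin and oxaliplatin/topotecan, and 6 in topotecan/oxaliplatin, where Cct3 (-0.17) did not pass. Cct8 was 10.70, 10.44, 10.60 and 10.58 in NaCl/D5W and 9.82, 9.74, 9.87 and 9.73 in NaCl/oxaliplatin, and 10.75, 10.69 and 11.07 in D5W/NaCl and 9.68, 9.65, 10.05 and 10.05 in oxaliplatin/NaCl. It was 9.58 to 9.91 in topotecan/oxaliplatin and 9.61 to 9.92 in oxaliplatin/topotecan. With topotecan alone it was 10.43, 10.78 and 10.35 in topotecan/D5W and 10.40, 10.25, 10.95 and 10.57 in D5W/topotecan, which overlap the vehicle rats. The falls of Cct8 were 0.98, 0.79, 0.82 and 1.05 in oxaliplatin/NaCl, in NaCl/oxaliplatin, in topotecan/oxaliplatin and in oxaliplatin/topotecan, those of Cct2 0.79, 0.75, 0.77 and 1.01, and those of Cct4, Cct5, Cct6a and Cct7 0.37 to 0.64. Without the arrays of rats 41 and 42, 6 of the 7 still fell in oxaliplatin/NaCl. Cct3, the exception (-0.28), also did not pass there without rat 24 (-0.32) or 41 alone (-0.31). The changes of the 7 in topotecan alone were -0.29 to 0.17. A second probe set of Cct5 did fall in D5W/topotecan, by 0.32 (limma adjusted p = 0.0049), and changed by -0.17 in topotecan/D5W, which did not pass.

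Of the genes that fell beside CCT at 1 h, Hspd1, Hspa9 and Hsp90ab1 also fell at 24 h in these treatments, Hspe1 in 3 of them, and Hsph1 in 0 by limma. Hsph1 changed by -0.43 in oxaliplatin/NaCl, -0.48 in NaCl/oxaliplatin, -0.36 in topotecan/oxaliplatin and -0.49 in oxaliplatin/topotecan, and only the first group overlapped vehicle. The exact permutation test gave p of 0.143, 0.0286, 0.0286 and 0.0571 in that order, or 0.103 and above after adjustment over 18 comparisons. Its second probe set changed by -0.80 to -0.45 and did not pass. Hspd1 fell by 0.46, 0.52, 0.43 and 0.50 in oxaliplatin/NaCl, in NaCl/oxaliplatin, in topotecan/oxaliplatin and in oxaliplatin/topotecan. Hspa9 fell by 0.50 to 0.58 and Hsp90ab1 by 0.33 to 0.49 in these 4, and Hspe1 by 0.39 to 0.50 in 3 of them (-0.18 in topotecan/oxaliplatin). The Hsp90ab1 call was lost in oxaliplatin/NaCl without rat 17, 18, 24, 41 or 42 (-0.45 to -0.33), in NaCl/oxaliplatin without rat 11, 77, 78 or 84 (-0.33 to -0.31) and in topotecan/oxaliplatin without rat 6, 11, 53 or 54 (-0.33 to -0.27), and that of Hspe1 in oxaliplatin/NaCl without rat 24 (-0.36). Without both rats 41 and 42, Hsp90ab1 (-0.23), Hspd1 (-0.35) and Hspe1 (-0.40) did not pass in oxaliplatin/NaCl. In topotecan alone Hspd1 was 12.58 to 12.83 in topotecan/D5W and 12.56 to 12.81 in D5W/topotecan, beside 12.53 to 12.66 in the 7 vehicle rats, and its changes were 0.12 and 0.07. Red cell precursor genes were low in all 6 treatments at 24 h: 11 of the 13 measured fell in each, and their mean was 11.24 and 10.88 in topotecan/D5W and D5W/topotecan, 11.36 and 11.37 in oxaliplatin/NaCl and NaCl/oxaliplatin, and 10.77 and 10.84 in topotecan/oxaliplatin and oxaliplatin/topotecan, beside 13.0 and 12.9 in vehicle. The mean of the dividing cell genes was 10.62 and 10.31 in topotecan alone and 10.38 and 10.29 in oxaliplatin alone. B cell precursor genes (4 of 11 measured) had means of 10.27 and 10.41 in oxaliplatin alone and 10.40 and 10.71 in topotecan/oxaliplatin and oxaliplatin/topotecan, beside 11.15 and 10.94 in topotecan alone and 11.01 and 10.84 in vehicle. The p53 target genes had means of 10.0 and 10.06 in oxaliplatin alone and 9.90 and 9.82 in the combinations, beside 8.87 and 9.05 in topotecan alone and 8.32 and 8.35 in vehicle. The part of any of these lists in the fall of CCT was not tested.

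Hspb1, a small heat shock protein that binds unfolding proteins, rose at 24 h with oxaliplatin. It was 5.85, 5.54, 6.09 and 6.22 in NaCl/D5W, 6.98, 6.96, 6.73 and 7.21 in NaCl/oxaliplatin, and 7.32, 7.60, 7.85 and 7.82 in topotecan/oxaliplatin. It was 6.05, 5.98 and 6.23 in D5W/NaCl, 7.31, 7.40, 7.08 and 7.43 in oxaliplatin/NaCl, and 7.04, 7.29, 7.30 and 7.38 in oxaliplatin/topotecan. No oxaliplatin rat overlapped vehicle. With topotecan alone it was 6.65, 6.34 and 6.34 in topotecan/D5W, which did not overlap NaCl/D5W either. It was 6.11, 6.74, 7.03 and 7.13 in D5W/topotecan, where the lowest rat overlapped D5W/NaCl. The probe set was dim, with a mean of 6.60 over the 93 arrays, at percentile 6.0 of all probe sets. Whether its signals lay above background was not tested. The rises were 1.05 in NaCl/oxaliplatin, 1.72 (SE 0.20, adjusted p = 1.3e-09) in topotecan/oxaliplatin, 1.22 in oxaliplatin/NaCl and 1.16 in oxaliplatin/topotecan, and the changes of topotecan alone, 0.52 and 0.67, did not pass. Without the 2 arrays high in muscle genes the rise in oxaliplatin/NaCl was 1.17 with an adjusted p of 0.011. At 6 h Hspb1 rose in topotecan/D5W (0.78), NaCl/oxaliplatin (0.84) and topotecan/oxaliplatin (1.22), and its NaCl/oxaliplatin change was 0.65 (adjusted p = 0.020) without rat 76, which read 7.28 where the other 3 read 6.34 to 6.63.

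Hspb6, a small heat shock protein abundant in muscle, fell at 6 h by 0.99 in topotecan/D5W, 0.97 in D5W/topotecan and 0.91 in oxaliplatin/topotecan. Its topotecan/D5W fall passed by little, with adjusted p of 0.011 to 0.022 when rat 3, 4, 27 or 33 was left out. It was 9.33 in rat 52 of topotecan/oxaliplatin at 6 h, beside 7.30, 7.03 and 6.49 in the others of its group, and 8.37 and 8.34 in rats 41 and 42, beside 7.00 and 7.33. These 3 arrays were the ones high in skeletal muscle genes, whose mean reached 10.0 in rat 52 and was at most 6.65 in the vehicle rats.

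Of the J protein genes at 24 h, 7 fell in all 6 treatments: Dnaja4, Dnajc9, Dnajc19, Dnajb14, Dnajb12, Dnajc11 and Dnajc8. The share of all probe sets that fell in all 6 was not counted, so whether 7 is many cannot be said. Dnaja4 fell by 1.15 in topotecan/D5W and 1.14 in D5W/topotecan, by 1.21 in oxaliplatin/NaCl and 1.33 in NaCl/oxaliplatin, and by 0.96 in topotecan/oxaliplatin and 1.18 in oxaliplatin/topotecan. Dnajc9 fell by 0.79, 0.90, 1.03, 1.15, 1.39 and 1.52 in that order of treatments, and read 12.42 to 12.54 in the 7 vehicle rats and 10.79 to 11.91 in the treated rats. Dnajb12 and Dnajb14, both of the endoplasmic reticulum membrane, fell by 0.41 to 0.95 and by 0.49 to 0.63. In topotecan/D5W, Dnajc3 (0.45), Dnajb11 (0.38) and Dnajc2 (0.33) rose beside Hspa1a and Dnajb2 fell by 0.68, and Dnajc5 rose in oxaliplatin/NaCl (0.28) and NaCl/oxaliplatin (0.29). Of these, Dnajc3 did not pass without rat 11, 12, 29 or 36 (0.41 to 0.43), Dnajb11 without rat 11 (0.33) or 29 (0.31), and Dnajc5 in oxaliplatin/NaCl without rat 24 (0.21) or 48 (0.25). Hspa5 and Hsp90b1, the main chaperones of the endoplasmic reticulum, did not pass at 6 or 24 h in any treatment (-0.40 to 0.35). Both fell at 1 h in topotecan/oxaliplatin, by 0.39 and 0.40, and Hsp90b1 did not pass there without rat 2 (-0.39), 7 (-0.30) or 49 (-0.31).

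Each combination was also set against its single agents. At 1 h, topotecan/oxaliplatin differed from NaCl/oxaliplatin in 32 of the 48 genes, 31 of them lower (39.0% of all probe sets differed, and 33 genes without rat 73), and from topotecan/D5W in 0 (0.0%, and 8 genes at an unadjusted p under 0.05 in limma). Oxaliplatin/topotecan differed from oxaliplatin/NaCl in 12, of which 10 were lower (26.3%), led by Dnajc13 (-0.91), Dnajc1 (-0.79) and Hspbap1 (-0.72), and from D5W/topotecan in 0 (0.239%, and 9 genes at an unadjusted p under 0.05). At 6 h, topotecan/oxaliplatin was higher than NaCl/oxaliplatin in Hspa1a (4.54), Hsph1 (1.26) and Dnaja1 (0.50) and lower in Dnajc9 (-0.85), Dnajc19 (-0.60), Dnajc24 (-0.39) and Dnajb14 (-0.38), 7 genes in all (17.0%), or 4 without rat 52 or 75. Oxaliplatin/topotecan was lower than oxaliplatin/NaCl in Dnajc9 (-0.76), Dnajc19 (-0.66) and Dnajb14 (-0.38), which were 3 genes (13.4%). Against the topotecan groups at 6 h, 0 genes differed in topotecan/oxaliplatin (1.32%) and 0 in oxaliplatin/topotecan (4.09%), with 3 and 4 genes at an unadjusted p under 0.05.

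At 24 h the combinations differed in more of the 48 genes from the topotecan groups than from the oxaliplatin groups. Topotecan/oxaliplatin differed from topotecan/D5W in 21 genes, 19 of them lower (29.6% of all probe sets), and oxaliplatin/topotecan from D5W/topotecan in 18, all 18 lower (16.8%). All 7 CCT genes, Hspd1, Hspe1, Hspa9 and Hsp90ab1 were lower in both, Cct8 by 0.76 in each and Cct2 by 0.66 and 0.78, while Hspb1 (1.21) and Dnajb2 (0.65) were higher in topotecan/oxaliplatin than in topotecan/D5W. Topotecan/oxaliplatin differed from NaCl/oxaliplatin in 1 gene, Dnajc5 (-0.23), where 15.9% of all probe sets differed, and this count was 2 without rat 53 and 0 without rat 54, 59 or 83. Oxaliplatin/topotecan differed from oxaliplatin/NaCl in 1, Dnajc9 (-0.49), where 5.93% differed.

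Genes that work with the 48 were followed from lists of their partners. Of the 17 co-chaperones of Hsp70 and Hsp90 measured of 23 listed, 12 fell and 0 rose in topotecan/D5W at 1 h, 13 fell and 0 rose in topotecan/oxaliplatin, 1 fell and 3 rose in D5W/topotecan and 3 fell and 2 rose in oxaliplatin/topotecan, beside the shares of all probe sets given for 1 h above. Stip1, which bridges Hsp70 and Hsp90, fell by 1.09 and 1.11 with topotecan first, and changed by 0.01 and -0.34 with topotecan second. Fkbp5, a partner of Hsp90 at steroid receptors, fell by 0.98 to 1.16 in all 4 topotecan treatments at 1 h. At 6 h Bag3, a co-chaperone induced by stress, rose by 0.76 in topotecan/D5W, 0.75 in D5W/topotecan, 1.21 in topotecan/oxaliplatin and 0.91 in oxaliplatin/topotecan, and its changes with oxaliplatin alone were 0.25 and 0.46. At 24 h 6 to 9 of the 17 fell in the 4 oxaliplatin treatments, where 26.4% to 35.2% of all probe sets fell, and 0 and 1 in topotecan alone, where 17.3% and 18.3% did.

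Of the partners of CCT, 9 of 10 were measured. At 1 h 5 fell and 0 rose in each treatment with topotecan first, where 26.0% and 32.9% of all probe sets fell and 9.18% and 9.77% rose. In the other 4 treatments 0 passed. There, 19.5% and 27.6% of all probe sets fell with topotecan second, but only 0.654% and 0.0239% with oxaliplatin alone. Tcp1, the subunit of the complex that the symbol rule does not take, fell by 0.72 and 0.73 with topotecan first at 1 h and by 0.43 to 0.63 in the oxaliplatin treatments at 24 h, and its changes in topotecan alone at 24 h were 0.11 and 0.00. All 10 mitochondrial chaperone partners and proteases were measured, and 6 to 9 of them fell at 24 h in the treatments with oxaliplatin and 4 and 5 in topotecan alone, beside the same shares of all probe sets. Lonp1, the main protease of the mitochondrial matrix, fell in all 6 treatments at 6 h (by 0.79 to 1.08) and at 24 h (by 0.53 to 0.98), and Hscb, a J protein for iron-sulfur clusters, fell in all 6 at 24 h (by 0.96 to 1.33). Of the endoplasmic reticulum list 17 of 19 were measured, and 1 to 3 rose and 1 to 3 fell in each topotecan treatment at 1 h, where 7.21% to 9.77% of all probe sets rose and 19.5% to 32.9% fell. Ddit3, a transcription factor of the stress response, rose by 1.36 to 1.69. In topotecan/D5W at 24 h 7 of the 17 rose (16.1% of all probe sets), among them Creld2 (0.68) and Pdia4 (0.62). Of the heat shock factors Hsf2 alone was measured, and it rose at 6 h by 0.54 in topotecan/oxaliplatin and 0.55 in oxaliplatin/topotecan, and by 0.56, 0.58 and 0.69 in topotecan/D5W, D5W/topotecan and topotecan/oxaliplatin at 24 h.

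Over all 93 arrays Hspa1a spanned a 113-fold range of signal, from 6.56 to 13.38, and Dnajb6 9.49-fold, whereas Cct4 spanned 1.79-fold and Dnajc8 1.76-fold. Few of the changes passed 2-fold with the adjusted p. At 1 h they were 2 in topotecan/D5W, 4 in topotecan/oxaliplatin and 1 in oxaliplatin/topotecan. At 24 h they were 2 to 6 in each treatment. Where a gene had a further probe set (13 of them in all), it moved the same way in 85 of the 86 comparisons in which the gene passed, and passed itself in 71.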

How the data were processed

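Marrow RNA of 93 rats in 24 groups was hybridised to Affymetrix Rat Genome 230 2.0 arrays, 1 array per rat. The authors normalized the arrays by RMA, left out 1 outlying array of oxaliplatin/NaCl at 6 h and filtered probe sets, and deposited log2 signals for 12560 probe sets (3.94 to 15.4, array medians 8.79 to 9.30). The 28 control probe sets were removed here and 12532 tested, of which 10002 carry 1 symbol, 292 several and 2238 none in the platform annotation. No 2 arrays were identical. Groups came from the labels.

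Each treatment was compared with its own-order vehicle in limma 3.58.1 (R 4.3.3), in 2 fits of 4 groups at 3 times, with Benjamini-Hochberg adjustment over all probe sets and a threshold of 0.01. The same fits compared combinations with single agents, and a fit of all 8 groups at 3 times tested order. Hspa1a and Hsph1 were also tested by an exact two-sided permutation of rats. The fit against vehicle was tested on simulated data for topotecan/oxaliplatin and oxaliplatin/NaCl at 6 h. The other contrasts, the alternative fits and the permutation were not. Limma p-values rest on a spread between rats pooled over the groups of a fit. The 3 or 4 rats a group limit the precision. Tables were made in Python 3.11.15 with pandas 2.3.3 and numpy 2.4.6.

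The members and lists were chosen with earlier results of these data known. Named with values were Hspa1a, the 3 largest risers and fallers of each comparison with vehicle, all members of the Hsp90, Hsp110, mitochondrial chaperonin and CCT families as grouped by symbol, and members that differed by order or between a combination and a single agent (the 5 largest where more). Further genes named in the text were chosen after their values were seen. Likeness to Hspa1a was the Pearson correlation over 93 arrays after the vehicle mean was taken off. Marker lists of skeletal muscle (16 of 17 measured), red cell, granulocyte, B cell and dividing cells, stroma, macrophages and p53 targets were kept as descriptions. The alternatives were a second quantile normalization, other choices of rats, vehicle, variance prior, block, threshold, probe sets and arrays, and leaving out each rat. Promoter sequences are RefSeq's, on GRCr8.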

Additional observations from a re-analysis of the deposited data

Results flagged for a closer look

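The response to topotecan alone at 1 h differed by order in 19 of the 48 genes, by a limma test of the difference itself. Order cannot be told apart from time since the drug. The largest differences, topotecan first minus topotecan second, were -1.47 for Hsph1, -0.92 for Dnaja3, -0.88 for Dnajb1, -0.86 for Dnajc3 and -0.85 for Hspa9. The combinations differed by order in 15 genes at 1 h, by -0.86 for Dnaja3, -0.82 for Dnajc3, -0.74 for Hspe1, -0.72 for Cct6a and -0.72 for Cct8.

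Single rats stood far from the rest of their group in 8 of the 168 groups examined over 8 genes. Chance alone gives about 1 in 20. Hspa1a was 10.96 in rat 92 of D5W/topotecan at 1 h and 8.24 in rat 63 of oxaliplatin/topotecan at 6 h. Cct8 was 10.41 in rat 73 of NaCl/oxaliplatin at 1 h. Hspd1 was 12.37 in rat 32 of topotecan/D5W at 1 h and 12.62 in rat 94 of D5W/topotecan at 6 h. Dnajb1 was 11.37 in rat 31 of topotecan/D5W and 11.01 in rat 50 of topotecan/oxaliplatin, both at 1 h, and Hspb1 was 7.27 in rat 49 of topotecan/oxaliplatin at 1 h.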

How the results depend on the processing

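No paired analysis was possible because each rat gave 1 array and no number pairs rats across groups. Requiring a fold above 2 left 2, 0, 4 and 1 of the 48 genes in topotecan/D5W, D5W/topotecan, topotecan/oxaliplatin and oxaliplatin/topotecan at 1 h, 3 and 1 in topotecan/D5W and D5W/topotecan, 0 and 0 in oxaliplatin/NaCl and NaCl/oxaliplatin, and 5 and 3 in the combinations (topotecan first and second) at 6 h, and 2 and 2, 4 and 4, and 3 and 6 in the same groups at 24 h. With only the groups compared in the fit, counts were 14 in topotecan/D5W, 2 in oxaliplatin/NaCl and 1 in NaCl/oxaliplatin at 6 h, and 8 in topotecan/D5W, 5 in D5W/topotecan and 17 in oxaliplatin/NaCl at 24 h. At an adjusted p under 0.05 they were 1 in oxaliplatin/NaCl and 20 in oxaliplatin/topotecan at 1 h, 10 in oxaliplatin/NaCl and 18 in NaCl/oxaliplatin at 6 h, and 14 in D5W/topotecan at 24 h. Both vehicles pooled gave 21 in oxaliplatin/topotecan at 1 h, 10 in oxaliplatin/NaCl at 6 h and 15 in D5W/topotecan at 24 h. The animal set as a block, and the sample code column as a random block, each gave 1 in oxaliplatin/NaCl at 1 h. Without rats 41, 42 and 52, whose muscle genes were high, oxaliplatin/NaCl had 15 at 24 h, and topotecan/oxaliplatin differed from NaCl/oxaliplatin in 4 genes at 6 h and 2 at 24 h, the latter count being 4 after a second quantile normalization. The share of all probe sets called at each of these settings was not counted. A change in the count of the 48 therefore cannot be told apart from a general change in calls. Apart from the alternatives' own construction, the cause was not tested.

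Hspa1a at 1 h passed at an adjusted p under 0.05 in D5W/topotecan (1.83) and oxaliplatin/topotecan (1.58), the latter also with only those groups in the fit (1.58). By the probe set shared with Hspa1b, chosen after the data were seen, it was -0.12 in topotecan/D5W at 1 h, the opposite sign, and 1.19, 1.75 and 1.60 in topotecan/D5W, oxaliplatin/NaCl and oxaliplatin/topotecan at 24 h, which did not pass. Leaving out single rats gave Hspa1a changes of -0.18 to 0.83 in NaCl/oxaliplatin at 1 h (-0.06 without rat 2 and -0.18 without rat 79) and 2.30 to 2.38 in topotecan/D5W at 24 h. It gave counts of 2 to 5 in oxaliplatin/NaCl and 6 to 8 in NaCl/oxaliplatin at 6 h, 7 to 15 in topotecan/D5W and 18 to 28 in oxaliplatin/NaCl at 24 h, and 4 to 6 at 6 h and 0 to 2 at 24 h for topotecan/oxaliplatin against NaCl/oxaliplatin. Over 155 values of named genes other than Hspa1a and 2890 settings, 2741 kept direction and side of the threshold, 149 kept direction alone and 0 reversed. The 155 values were picked because they had passed in the main fit, so the looser threshold of 0.05 could lose none of them. With only the 2 groups compared in the fit, 26 of the 155 no longer passed.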
